A study of Rattus norvegicus with 4 samples.

Results

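Livers of rats given thiamine, vitamin B1, in their drinking water and of untreated rats were compared for 48 genes that encode enzymes of amino acid breakdown. The genes form a list of enzymes grouped by the amino acid they degrade, and their probes were found by gene symbol on a 1-colour CodeLink rat array. Of the 48 genes, 42 had a named probe, out of 12463 named genes on the array, and 38 of these were measured, out of 8985 named genes kept after dim probes were removed. The brightest probe of each of the 38 was above background on all 4 arrays, so none was kept through 1 group alone. The thiamine group was 2 male Otsuka Long-Evans Tokushima Fatty (OLETF) rats that had 2 g of thiamine per L (0.2%) in their water for 51 weeks from 4 weeks of age. The untreated group was 2 male OLETF rats of the same age whose water held no added thiamine. Both groups ate ordinary chow, and both carry the strain's own background of obesity and diabetes, which goes with the loss of a cholecystokinin receptor. Tissue was collected at 55 weeks of age, after a fast of 16 h. Each array held 1 rat and nothing was pooled. The study kept 8 rats per group with 2 to a cage, and cage mates among the rats on arrays are not known here.

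The liver is the main site where most amino acids lose their nitrogen and yield carbon for glucose, ketone bodies or oxidation. Aminotransferases, serine dehydratase and glutamate dehydrogenase release the nitrogen, the urea cycle and glutamine synthetase take it up, and the carbon skeletons enter the tricarboxylic acid cycle. Fasting, glucagon and glucocorticoids are known to raise several of these enzymes in rat liver, among them tyrosine aminotransferase and serine dehydratase. The enzymes are also zoned: glutaminase and serine dehydratase are known from hepatocytes near the portal vein, glutamine synthetase from those next to the central vein.

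The measured enzymes were evenly divided: in the thiamine livers 19 had a higher mean and 19 a lower one, and 50.9% of all kept probes had a higher one. Their median log2 difference in intensity, thiamine minus untreated, was 0.03, against 0.01 over all 18664 kept probes. The enzymes furthest from 0 in relation to their error, at an unadjusted p under 0.05, were 9. Of these the higher ones were the serine dehydratase Sds, the proline dehydrogenase Prodh, the ornithine aminotransferase Oat, the glutaminase Gls2, the glutamine synthetase Glul and the glutamate dehydrogenase Glud1. The lower ones were the glycine decarboxylase Gldc and Kynu and Haao, which act in series on the way from tryptophan to NAD. On the brightest probe of each of these 9 genes the groups did not overlap, as on 36.1% of all kept probes. The 9 were picked by p from these same values, so this is no separate support.

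No single gene passed the test. Limma with Benjamini-Hochberg adjustment over all kept probes called 0 of the 38 enzymes at an adjusted p under 0.05, as it called 0% of all 18664 kept probes. On the brightest probe of each gene, which stands for it, the smallest adjusted p among the enzymes was 0.25. At an unadjusted p under 0.05 in the same fit there were 9 of the 38 enzymes (23.7%), while all kept probes had a share of 6.75%. Of the 9 enzymes 6 were higher and 3 lower, where the shares over all kept probes were 3.81% and 2.94%. Groups that did not overlap were seen in 23 of the 38 (60.5%), while the share over all kept probes was 36.1%. They were higher in 11 and lower in 12, where the shares over all kept probes were 17.8% and 18.3%. The enzymes were listed with earlier results of these data known, so these shares describe the list and are not a test of it. The values below are therefore measured differences that were not called. Each is given with a moderated standard error, which limma draws towards the spread over all probes.

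**Figure D1:**
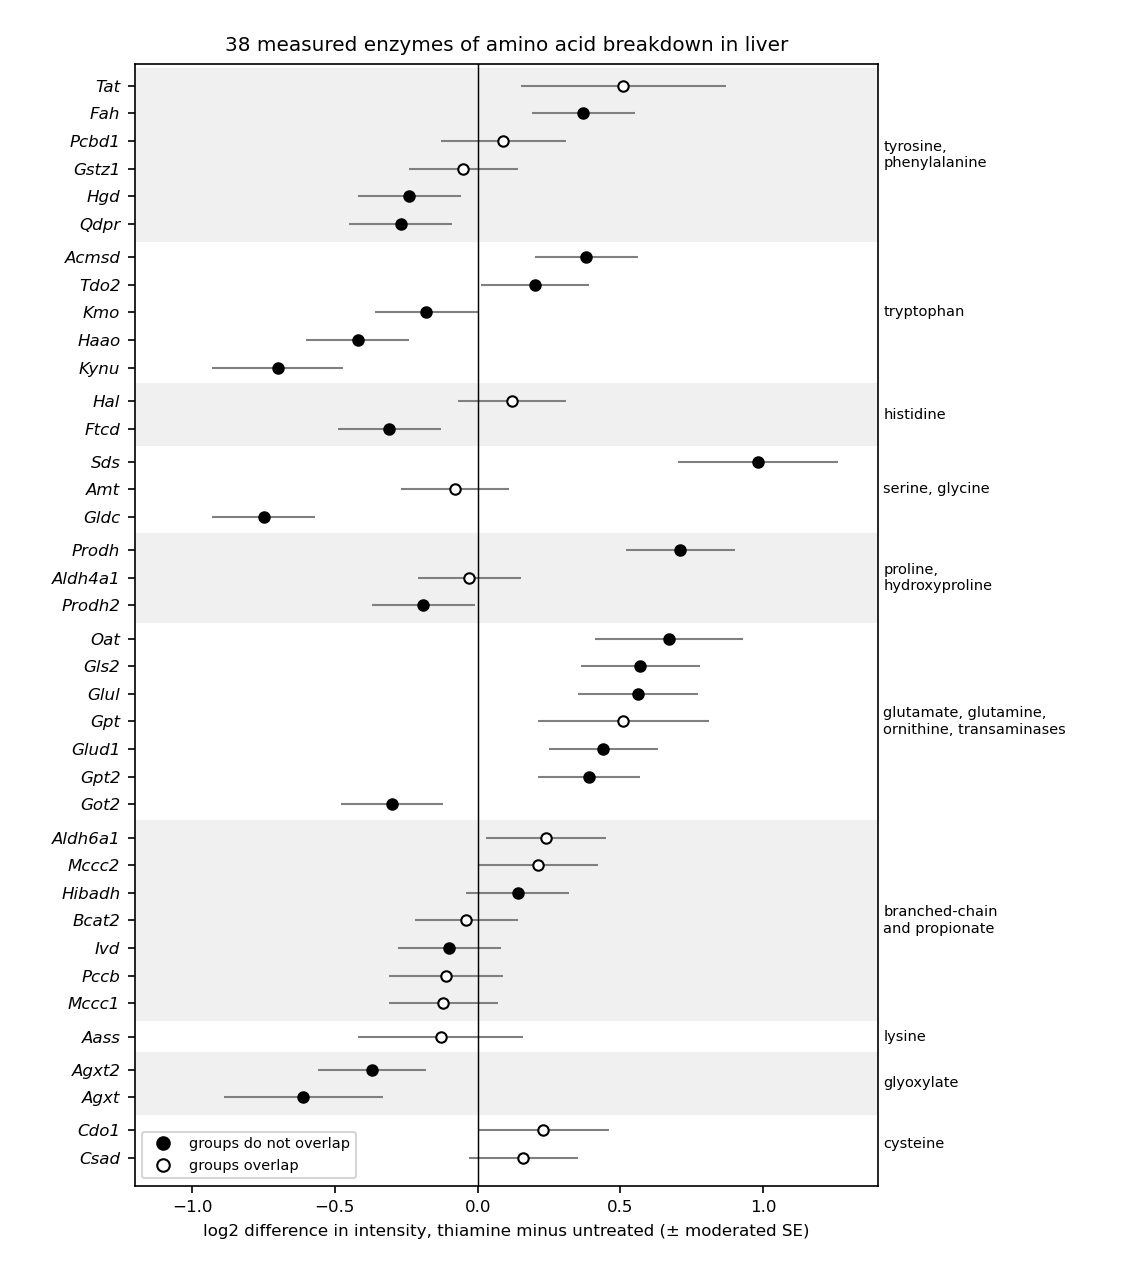
The log2 difference in intensity, thiamine minus untreated, of the 38 measured enzymes, with bars of 1 moderated SE (n = 2 rats per group), grouped by the amino acid degraded. Filled points mark the 23 enzymes whose groups did not overlap, and 6 of the 7 enzymes of the glutamate group lie right of 0.

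On the arrays, 19075 and 20071 of 33849 gene probes were above background in thiamine rats 1 and 2, and 18176 and 18392 in untreated rats 1 and 2. The tissue label fits its markers: all 10 hepatocyte markers, among them albumin, were measured, and 5 of them were saturated on all arrays. The summed intensity of the 5 others was 39400 and 45300 in the thiamine livers and 44600 and 41700 in the untreated ones. Kupffer cell and endothelial markers had higher means in the thiamine livers, but 0 were called. Their groups overlapped in 3 Kupffer cell markers and 3 endothelial markers. All 9 measured Kupffer cell markers were higher in the thiamine livers, with summed intensities of 29100 and 20200, against 19700 and 12800 in the untreated livers. All 8 measured endothelial markers were higher as well, with sums of 7420 and 6840 in the thiamine livers and 5650 and 4960 in the untreated livers. Of the other Kupffer and endothelial markers listed, 4 and 2 had no named probe. Markers of stellate cells and fibroblasts had a median log2 difference of 0.07, with 4 higher and 2 lower. Of the bile duct markers 2 were higher and 1 lower. Among the higher ones, Cldn7 was below background in both untreated rats and kept through the thiamine group alone, so its direction is no result. The 2 lymphocyte markers (median 0.13) and the 2 erythroid markers (median 0.20) were higher, and the 1 neutrophil marker was lower, at -0.38. In whole liver, fewer cells of a type and less RNA per cell cannot be told apart, and the part of these markers in the differences of the enzymes was not tested.

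Promoters are shown for 4 of the 9 enzymes at an unadjusted p under 0.05, the 2 in each direction with the smallest p that had a single entry, so that the start regions of enzymes with opposite differences can be read side by side. They come from RefSeq, build GRCr8, which held 31 of the 38 measured enzymes, and run from 250 bases before to 50 after the gene's start. They lie at chr1:237375555-237375854, minus strand (Gldc); chr3:48188036-48188335, plus strand (Kynu); chr1:196797705-196798004, minus strand (Oat); and chr16:9646319-9646618, plus strand (Glud1). Capitals mark matches, on either strand, to the half-site of the cyclic AMP response element (TGACG), the glucocorticoid half-site (TGTTCT), a C/EBP motif (TTGCNNAA), the CCAAT box (CCAAT) and the TATA box (TATAAA), none of which contains another.
Gldc: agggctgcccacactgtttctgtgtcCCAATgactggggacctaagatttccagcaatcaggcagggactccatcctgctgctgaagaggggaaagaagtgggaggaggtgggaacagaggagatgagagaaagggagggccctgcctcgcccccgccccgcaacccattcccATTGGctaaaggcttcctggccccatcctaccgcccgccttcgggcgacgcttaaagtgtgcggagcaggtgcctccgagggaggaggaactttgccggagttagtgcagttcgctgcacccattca
Kynu: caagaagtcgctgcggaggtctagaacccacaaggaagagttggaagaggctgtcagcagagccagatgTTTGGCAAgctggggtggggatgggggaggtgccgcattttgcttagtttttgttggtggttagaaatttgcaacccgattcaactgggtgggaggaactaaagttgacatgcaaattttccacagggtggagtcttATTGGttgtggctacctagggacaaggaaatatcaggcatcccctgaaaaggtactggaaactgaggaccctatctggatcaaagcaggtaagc
Oat: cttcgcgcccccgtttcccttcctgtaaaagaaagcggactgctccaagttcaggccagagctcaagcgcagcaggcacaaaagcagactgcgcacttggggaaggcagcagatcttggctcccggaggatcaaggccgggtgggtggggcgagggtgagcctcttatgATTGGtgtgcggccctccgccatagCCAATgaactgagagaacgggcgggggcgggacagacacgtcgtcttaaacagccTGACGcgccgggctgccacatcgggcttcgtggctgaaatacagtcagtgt
Glud1: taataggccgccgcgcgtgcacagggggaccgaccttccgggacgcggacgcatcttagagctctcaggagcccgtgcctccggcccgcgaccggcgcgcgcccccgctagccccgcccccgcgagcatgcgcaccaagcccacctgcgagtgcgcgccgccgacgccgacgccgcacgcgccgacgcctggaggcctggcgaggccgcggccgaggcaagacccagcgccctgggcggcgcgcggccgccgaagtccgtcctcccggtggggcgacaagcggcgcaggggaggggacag
Gldc held a CCAAT box on each strand, starting at bases -224 and -77 from the gene's start, and none of the other 4 motifs. Kynu held a C/EBP match at -181 and a CCAAT box on the minus strand at -44. Oat held CCAAT boxes at -81 and -56 and the cyclic AMP half-site at -1. Glud1 held none of the 5. Among all 33469 promoters of the table the CCAAT box was in 37.5%, the cyclic AMP half-site in 21.2%, the glucocorticoid half-site in 20.7%, the TATA box in 14.2% and the C/EBP motif in 10.6%. In the 31 measured enzymes listed there, 18, 7, 4, 5 and 5 held these in the same order. An enzyme was counted if any of its entries held the motif, while the percentages count single entries. The 2 measures are therefore not alike, and no excess was tested. A match is a run of letters and not a shown binding site.

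Enzymes that move nitrogen through glutamate and glutamine had the highest median of the groups with more than 2 measured genes, 0.51, with 6 of 7 higher. Oat, which turns ornithine into glutamate semialdehyde, had log2 intensities of 10.89 and 10.98 in thiamine rats 1 and 2, against 10.70 and 9.84 in untreated rats 1 and 2. It was higher by 0.67 ± 0.26 (log2, SE, n = 2 per group), and untreated rat 2 lay far below the other 3 rats. Gls2, the liver glutaminase that frees ammonia from glutamine, stood at 9.58 and 9.32 in thiamine rats and at 9.12 and 8.64 in untreated rats. Its difference was 0.57 ± 0.21, and the gap between the groups was 0.21, smaller than the gap between the rats of either group. The spot of untreated rat 2 carried a quality flag. Glul, which runs the opposite reaction and binds ammonia into glutamine, was at 12.17 and 12.27 in thiamine rats, against 11.92 and 11.39 in untreated rats, a difference of 0.56 ± 0.21. Genes for both directions of this exchange had higher values, with untreated rat 2 the lowest for each.

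Glud1, the mitochondrial dehydrogenase that releases ammonia from glutamate, was at 14.02 and 13.95 in thiamine rats and at 13.37 and 13.73 in untreated rats. It was higher by 0.44 ± 0.19, and its other probe was higher by 0.39 ± 0.20 (n = 2 per group), so 2 probes gave like values. The alanine aminotransferase Gpt2 was at 10.16 and 10.27 in thiamine rats and at 9.91 and 9.72 in untreated rats, a difference of 0.39 ± 0.18. Its relative Gpt, which makes pyruvate from alanine, was at 12.84 and 12.80 in thiamine rats, against 11.76 and 12.86 in untreated rats. Here the groups overlapped, and the difference of 0.51 ± 0.30 was -0.04 without untreated rat 1. A second, dimmer probe of Gpt had 9.62 and 9.91 in thiamine rats and 9.09 and 9.42 in untreated rats, also 0.51 apart. Got2, the mitochondrial aspartate aminotransferase, was the 1 enzyme of the group with a lower value, -0.30 ± 0.18, with 13.90 and 13.82 in thiamine rats and 14.17 and 14.16 in untreated rats. The 2 dimmer probes of Got2 were both at 0.10, so its probes did not share a sign.

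Serine and glycine breakdown held both ends of the range. Sds, the dehydratase that turns serine into pyruvate for glucose synthesis, had log2 intensities of 11.0 and 11.54 in thiamine rats and 10.72 and 9.86 in untreated rats. Its difference, 0.98 ± 0.28, was the highest of the 38 enzymes, with an unadjusted p of 0.0052 and an adjusted p of 0.38 (limma). The second probe of Sds had 9.29 and 9.53 in thiamine rats, against 8.24 and 6.48 in untreated rats, of which only rat 1 was above background. This probe was kept through the thiamine group alone. Its difference of 2.05 ± 0.42, not called, takes in a value below background and gives no separate support for the first probe. Untreated rat 2 was the lowest of the 4 rats on the first probe and below background on the second. Gldc, the decarboxylase of the mitochondrial glycine cleavage system, had 10.23 and 10.29 in thiamine rats and 11.06 and 10.97 in untreated rats. Its difference, -0.75 ± 0.18, was the lowest of the list and had the smallest p on the brightest probes, 0.0015 unadjusted and 0.25 adjusted (limma). The rats of a group lay within 0.09 of each other, and the difference stayed between -0.80 and -0.71 whichever rat was left out. Amt, the aminomethyltransferase of the same system, was at -0.08 ± 0.19 with overlapping groups, 8.64 and 8.45 in thiamine rats and 8.49 and 8.76 in untreated rats. The carrier protein of this system, Gcsh, was not above background on any array.

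The aminotransferases that use glyoxylate as acceptor were both lower in the thiamine livers. Agxt, the enzyme that turns glyoxylate into glycine, was at 11.57 in both thiamine rats, against 11.68 and 12.68 in untreated rats. Its difference of -0.61 ± 0.28 rested on untreated rat 2, and without that rat it was -0.11. The mitochondrial Agxt2 was at 11.03 and 11.26 in thiamine rats and at 11.62 and 11.42 in untreated rats, a difference of -0.37 ± 0.19.

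In proline breakdown the first enzyme stood apart from the next. Prodh, the mitochondrial dehydrogenase that opens the pathway, had 11.22 and 11.46 in thiamine rats and 10.74 and 10.52 in untreated rats, a difference of 0.71 ± 0.19 (unadjusted p = 0.0034, adjusted p = 0.33, limma). Its dimmer probe was at 0.06 ± 0.22, with overlapping groups, so the 2 probes of Prodh did not give like values. Aldh4a1, which completes the conversion to glutamate, was at -0.03 ± 0.18, with 12.81 and 12.80 in thiamine rats and 12.96 and 12.73 in untreated rats. The hydroxyproline enzyme Prodh2 was at 13.67 and 13.69 in thiamine rats and 13.90 and 13.83 in untreated rats, a difference of -0.19 ± 0.18.

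All 5 measured enzymes of tryptophan breakdown had groups that did not overlap, 2 of them higher and 3 lower. The share was 60.5% over the 38 enzymes and 36.1% over all kept probes. The gap between the groups was only 0.04 in Tdo2 and 0.08 in Kmo. Tdo2, the dioxygenase that opens the indole ring, had 14.93 in both thiamine rats and 14.89 and 14.58 in untreated rats, a difference of 0.20 ± 0.19, with a saturated spot in thiamine rat 1. Kmo, which hydroxylates kynurenine, was lower by a small amount, at 11.57 and 11.53 in thiamine rats and 11.82 and 11.65 in untreated rats, or -0.18 ± 0.18. A second probe of Kmo was at 0.15 ± 0.22 with overlapping groups, so its direction differed between probes. Kynu, the kynureninase that cleaves the product of Kmo, was at 10.80 and 10.96 in thiamine rats and 11.25 and 11.92 in untreated rats. The difference of Kynu was -0.70 ± 0.23, with the highest value in untreated rat 2. Haao, the dioxygenase whose product closes to quinolinic acid, was at 13.04 and 12.85 in thiamine rats and 13.35 and 13.37 in untreated rats, a difference of -0.42 ± 0.18. Acmsd draws the same intermediate away from quinolinic acid, towards full oxidation. It was higher, with 10.78 and 10.89 in thiamine rats and 10.40 and 10.51 in untreated rats, or 0.38 ± 0.18. The next enzyme on the route to NAD, the phosphoribosyltransferase Qprt, is not among the 48. It was at 12.50 and 12.26 in thiamine rats and 13.17 and 12.98 in untreated rats, a difference of -0.70 ± 0.19 (unadjusted p = 0.0036, adjusted p = 0.33, limma).

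**Figure D2:**
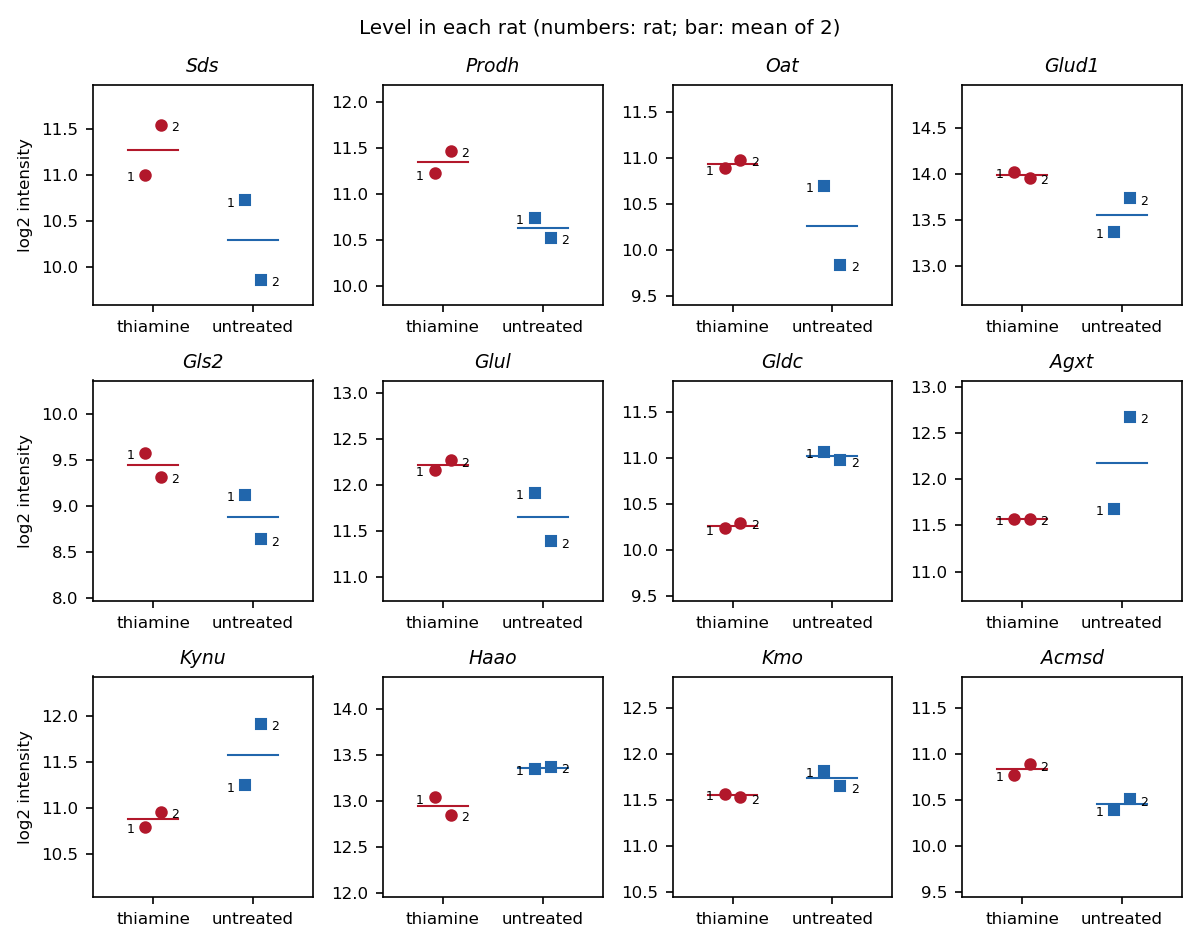
Log2 intensity of 12 enzymes in each rat, thiamine rats as red circles and untreated rats as blue squares, with the rat's number beside each point and a bar at the mean of 2 rats. Every panel spans the same log2 range. In all 12, picked with their values known, the groups do not overlap on the brightest probe. Untreated rat 2 stands off from untreated rat 1 in Sds, Oat, Agxt and Kynu.

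Tyrosine and phenylalanine breakdown showed no common direction, with 3 of 6 measured enzymes higher and a median of 0.02. Tat, the tyrosine aminotransferase, varied most between rats of a group, at 12.16 and 13.39 in thiamine rats and 12.65 and 11.87 in untreated rats. Its groups overlapped, its difference was 0.51 ± 0.36, and without thiamine rat 2 it was -0.10. Both probes of Tat put thiamine rat 2 highest and untreated rat 2 lowest. On the brighter probe the spots of thiamine rat 1 and untreated rat 1 carried quality flags. Fah, the last enzyme of the pathway, was at 11.11 and 11.18 in thiamine rats and 10.68 and 10.88 in untreated rats, a difference of 0.37 ± 0.18. Hgd, the homogentisate dioxygenase, was at 12.59 and 12.77 in thiamine rats and 13.0 and 12.85 in untreated rats, or -0.24 ± 0.18. Gstz1, which acts between Hgd and Fah, was at -0.05 ± 0.19. Of the enzymes that regenerate the cofactor tetrahydrobiopterin, Qdpr was at -0.27 ± 0.18 without overlap and Pcbd1 at 0.09 ± 0.22 with overlap.

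In histidine breakdown the first enzyme, Hal, was at 0.12 ± 0.19, with 11.33 and 11.51 in thiamine rats and 11.43 and 11.18 in untreated rats. Ftcd, which passes the last carbon of the pathway to tetrahydrofolate, was at 13.47 and 13.55 in thiamine rats and 13.84 and 13.80 in untreated rats. Its difference was -0.31 ± 0.18, and the groups did not overlap. A further enzyme of this pathway, Amdhd1, was not above background on any array.

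Enzymes of branched-chain amino acids and propionate were the group with the narrowest spread among those of more than 2 genes. Their 7 measured members lay between -0.12 and 0.24, with a median of -0.04, 5 of them with overlapping groups. Aldh6a1, the semialdehyde dehydrogenase of valine breakdown, was the highest, at 11.71 and 12.11 in thiamine rats and 11.83 and 11.51 in untreated rats, or 0.24 ± 0.21. Its other probe was at 0.27 ± 0.18. The subunits of the leucine enzyme methylcrotonyl-CoA carboxylase, Mccc1 and Mccc2, were at -0.12 ± 0.19 and 0.21 ± 0.21, both with overlapping groups. Bcat2, the mitochondrial aminotransferase that starts the pathway in other tissues more than in liver, was at -0.04 ± 0.18 and the isovaleryl-CoA dehydrogenase Ivd at -0.10 ± 0.18. Pccb, a subunit of propionyl-CoA carboxylase, was at -0.11 ± 0.20 and the valine enzyme Hibadh at 0.14 ± 0.18.

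Lysine and cysteine were covered by 3 measured genes, all with overlapping groups. Aass, which joins lysine to oxoglutarate, was at 8.37 and 8.81 in thiamine rats and 8.22 and 9.23 in untreated rats, or -0.13 ± 0.29. Cdo1, the cysteine dioxygenase, was at 14.55 and 14.16 in thiamine rats and 14.41 and 13.85 in untreated rats, or 0.23 ± 0.23. Csad, which makes hypotaurine from the product of Cdo1, was at 0.16 ± 0.19.

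Of the 48 genes, 10 gave no measured difference. Amdhd1, Tdh, Gcsh and Hibch had a probe that was not above background on any of the 4 arrays. Hpd, Afmid, Uroc1, Sdsl, Mmut and Pcca lacked a probe with a gene name and are not analysed here. Several kept probes were available for 10 enzymes, and in 2 of them, Kmo and Got2, the probes differed in sign.

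The untreated rats differed from each other more than the thiamine rats did. The median gap between the 2 rats of a group was 0.15 in the thiamine group and 0.25 in the untreated group over the 38 enzymes, against 0.16 and 0.22 over all kept probes. A gap over 0.5 was seen in 2 enzymes between the thiamine rats, Tat and Sds, and in 10 between the untreated rats. These are 5.26% and 26.3% of the enzymes, against 5.73% and 14.4% of all kept probes. Many of the differences above moved with 1 rat. Without untreated rat 2, Sds was at 0.55, Oat at 0.24, Glul at 0.30, Gls2 at 0.34 and Kynu at -0.36. Without untreated rat 1 these were 1.41, 1.09, 0.83, 0.81 and -1.04, and Glud1 was at 0.26. Prodh stayed between 0.59 and 0.83 and Haao between -0.51 and -0.32 whichever rat was left out. The median difference over the 38 enzymes lay between -0.009 and 0.029 when 1 rat was left out, against 0.029 with all rats.

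**Figure D3:**
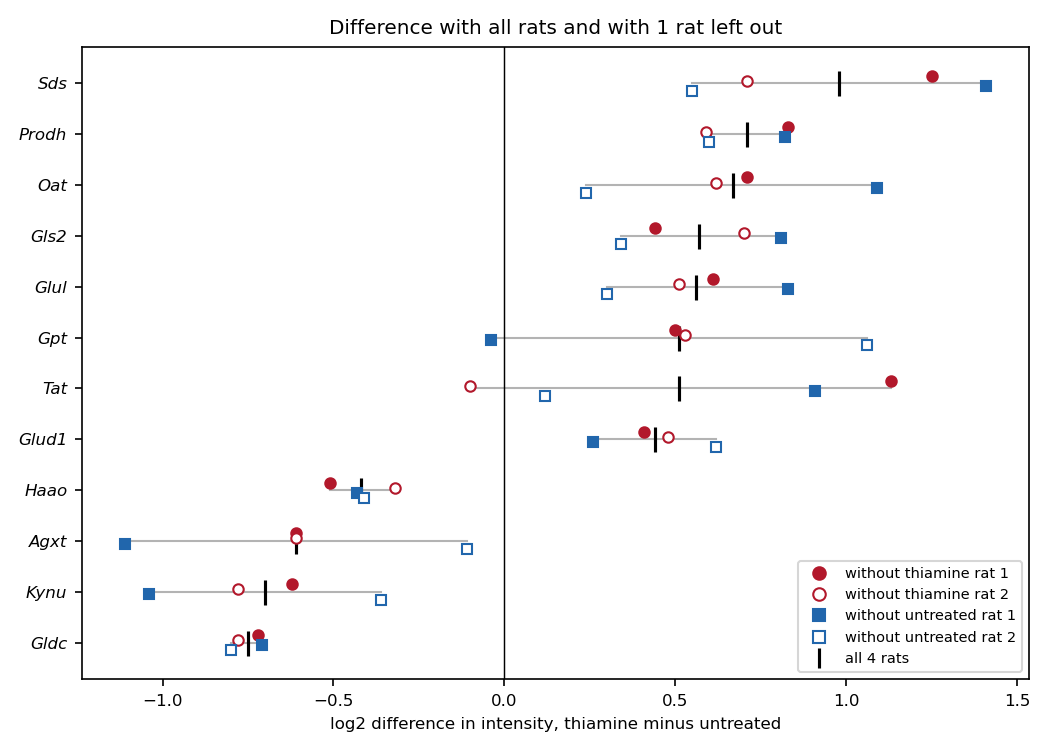
The log2 difference in intensity, thiamine minus untreated, of 12 enzymes with all 4 rats (black tick) and with each rat left out in turn (red circles for thiamine rats, blue squares for untreated rats). Gldc moves least, between -0.80 and -0.71, while Gpt spans -0.04 to 1.06 and Tat -0.10 to 1.13.

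Beyond the 48, a list of 45 further genes of amino acid breakdown had 32 measured members, 13 higher and 19 lower, with a median of -0.04. None was called, and at an unadjusted p under 0.05 (limma) 1 was higher and 2 were lower (9.38% of the 32, against 6.75% of all kept probes). The groups did not overlap in 14 of the 32 (43.8%, against 36.1% of all kept probes). The 3 genes at an unadjusted p under 0.05 were Qprt, Got1 and Shmt2. Got1, the cytosolic aspartate aminotransferase, was at 11.97 and 12.46 in thiamine rats and 11.63 and 11.72 in untreated rats, or 0.54 ± 0.21. Shmt2, which interconverts serine and glycine in mitochondria, was at 10.77 and 10.90 in thiamine rats and 11.22 and 11.35 in untreated rats, a difference of -0.45 ± 0.18. The asparaginase Aspg was higher by 0.61 ± 0.28, or by 0.10 without untreated rat 2, and the glutaryl-CoA dehydrogenase Gcdh of lysine breakdown by 0.38 ± 0.21.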

How the data were processed

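Liver RNA of 4 rats was measured on 1-colour CodeLink arrays. Per the file headers, the reports come from CodeLink Expression Analysis 5.0.0.31312 and give, as intensity on a linear scale, each spot's mean and its local background, without normalization between arrays. The deposited value table holds intensity too, with column quartiles that match between arrays; its making by the authors is not stated in these sources.

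Here, background was corrected with normexp (offset 50) over 35129 features, 1280 controls were removed, and log2 values of 33849 gene probes were quantile normalized. Contaminated and saturated spots were kept. On the brightest probes, spots of Tat and Pccb carried quality flags in thiamine rat 1 and untreated rat 1. So did spots of Ivd in thiamine rat 1 and of Got2, Agxt2 and Gls2 in untreated rat 2. A probe was kept where either group had it above background on both of its arrays (18664 probes). Probes were named by the platform's annotation, with symbols brought up to date by gene identifier, and 367, including that of Pcbd1, by the RefSeq accession in the reports. The brightest kept probe stands for a gene. Log2 differences were tested with limma 3.58.1 in R 4.3.3 (lmFit, eBayes, two-sided, Benjamini-Hochberg over kept probes); residual degrees of freedom were 2, or 10.8 after moderation. For arrays, the number of rats limits precision. The fit was tested on simulated data. Members and lists were chosen with earlier results of these data known. Enzymes were described with the value in each rat if at an unadjusted p under 0.05, if without overlap at a difference of at least 0.4, or if largest in their group; further ones were added for context after their values were seen. A gene outside the 48 is not reported here.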

Additional observations from a re-analysis of the deposited data

How the results depend on the processing

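With all 4 arrays and no block, limma called 0 kept probes and 0 of the enzymes with normexp at an offset of 16, background-subtracted intensities, median scaling, no filter, only probes above background on all arrays, flagged spots set to missing, the deposited value table and an intensity trend in eBayes. The mean over a gene's probes called 0 enzymes as well. The median difference over the enzymes lay between 0.004 with median scaling and 0.093 with flagged spots missing. At an unadjusted p under 0.05 there were 5 enzymes with no filter on dim probes, and between 6 and 11 in the other settings just named. Leaving out 1 rat gave between 1 and 67 called probes, with 0 enzymes among them, and between 4 and 11 enzymes at an unadjusted p under 0.05; the median difference was between -0.009 and 0.029. A group's single remaining rat then takes its spread from the other group, and probes and scaling were kept. With the replicate number as a block, 126 probes were called, and 1 enzyme, Sds (0.98, adjusted p = 0.047). The labels give no meaning to the shared numbers. Deviations of same-numbered rats correlated at -0.074 over kept probes. With 2 rats per group this 1 value cannot settle whether same-numbered rats share more than a number. With 1 rat left out the sign turned for 12 of the 38 enzymes. All 12 had overlapping groups, as the sign cannot turn where the groups do not overlap. Among them were Gpt, Hal, Tat (between -0.10 and 1.13), Aass (between -0.64 and 0.37) and Cdo1 (between -0.05 and 0.51). The cause was not tested. With a gene's probes averaged, Prodh was at 0.38 and Sds at 1.52. The dimmer probe of Sds was below background in untreated rat 2. A slide or scan date as a block was not run, as each slide holds 1 array and the headers used here give no scan date.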

Other observations

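Genes tied to the hormone control of these enzymes lay between -0.30 and 0.31. Of 14 measured genes on a list of hormone receptors, transcription factors and their liver targets, 11 were higher and 3 lower in the thiamine livers. Of all kept probes, 50.9% were higher. The median of the 14 was 0.05, against 0.01 over all kept probes. In limma 0 were called and 0 had an unadjusted p under 0.05, against 6.75% of all kept probes. Among the 11, Creb1 was below background in both untreated rats and kept through the thiamine group alone, so its direction is no result. Cebpa, a factor of hepatocyte metabolism, had 10.14 and 10.40 in thiamine rats and 10.03 and 9.89 in untreated rats, a difference of 0.31 ± 0.19 (SE, n = 2 per group). The cyclic AMP coactivator Crtc2 was at 0.29 ± 0.18 and the bile acid receptor Nr1h4 at -0.30 ± 0.20. Neither had overlapping groups, as on 36.1% of all kept probes. For Nr1h4 the gap between the groups was only 0.03, and the flagged spot of thiamine rat 1 was kept. Without thiamine rat 2 its difference was -0.08. The glucocorticoid receptor Nr3c1 was at 0.19 ± 0.19 with overlapping groups.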
